A study of Mus musculus with 47 samples.

Results

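The comparison described here is gastrocnemius muscle of mice that bore a human tumour and received a control antibody against gastrocnemius muscle of mice without a tumour. Its members are the 10 muscle libraries whose titles carry IgG1 or NTB, 5 in each group, out of 47 libraries of muscle, white fat and brown fat in the whole series. The NTB mice bore no tumour and their labels give no antibody. The IgG1 mice were inoculated with HT1080, a human fibrosarcoma cell line, and were dosed with the control antibody IgG1 at 3 mg/kg each week from the day of inoculation. Tissue of the C57Bl6 mice was taken 21 days after inoculation. IgG1 against NTB therefore joins the tumour and the antibody, whose parts cannot be told apart, and whether the mice that carried human cells had an intact immune system is not stated. Another 5 muscle libraries came from mice with the same tumour given 3P10, an antibody against GFRAL. Those libraries entered the fit to estimate the spread, and their values are set beside the others. The labels number the samples without saying that each came from its own animal, so p-values measure the spread between these samples.

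Skeletal muscle holds much of the protein of the body and loses it during the wasting that accompanies many tumours. Glucocorticoids and cytokines of the interleukin-6 family are known to act on muscle fibres in that state: the glucocorticoid receptor and the transcription factors STAT3, FoxO and C/EBP raise genes that restrain the growth kinase mTOR, tag contractile proteins for the proteasome, or release amino acids. Connective tissue cells between the fibres make the collagens and glycoproteins of the muscle matrix, and the tendon end of the gastrocnemius adds its own set of matrix genes. In bulk tissue, fewer cells of a type and less RNA per cell cannot be told apart.

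The 15 muscle libraries held 24.8 to 33.5 M counts each (median 28.3, where M is 1000 × 1000). A count of 0 allows up to 3 counts, equal to 0.0838 to 0.143 counts per M of scaled library total (CPM) across libraries, and that limit covers counting error only. Levels below are CPM per library, in the order of replicates 1 to 5. The 4 libraries whose column number in the deposited table is 14 or higher stood apart from the other 11: their score on the first principal component ran from 51.7 to 57.6, against -29.3 to -2.71 elsewhere. These 4 were replicate 3 of NTB, replicates 2 and 4 of IgG1 and replicate 2 of 3P10, so each group held at least 1. A term for this split was called for 7160 of 13283 genes (53.9%), and over 5 equal groups of genes by transcript length its median ran from 0.54 on the log2 scale in the shortest to -0.45 in the longest. The labels do not say what the number stands for, and what lies behind the split was not tested. Fold changes are from the fit without the term unless the sentence says otherwise, and most list counts are given from both fits.

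**Figure D1:**
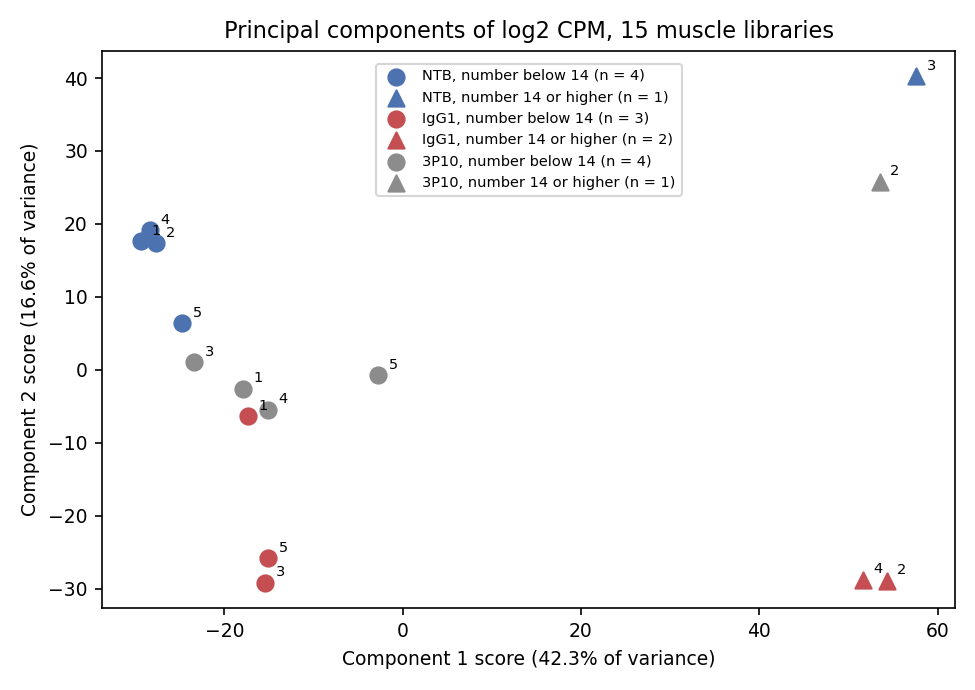
Scores of the 15 muscle libraries on the first component (horizontal, 42.3% of variance) and the second (vertical, 16.6%) of log2 CPM; colours mark the groups, triangles the 4 libraries numbered 14 or higher, and digits the replicate. The triangles sit right of 51, and all 5 IgG1 libraries sit below all 5 NTB libraries on the second component.

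The tissue label held against its markers. The summed level of 10 skeletal muscle fibre genes spanned 157848 to 299129 CPM for NTB and 180592 to 284241 for IgG1 (at an unadjusted p under 0.05 in edgeR, 2 of the 10 were higher and 0 lower). This sum followed the library split: over all 15 libraries it was 221947 to 299129 CPM in those numbered 14 or higher and 157848 to 216447 in the rest. Haemoglobin genes Hba-a1, Hba-a2, Hbb-b1 and Hbb-b2 had 0 reads, and red cell content could not be read from them. Summed adipocyte markers spanned 1230 to 2825 CPM for NTB and 1632 to 2878 for IgG1, and macrophage markers 70.3 to 124 for NTB and 85.2 to 116 for IgG1. In edgeR 0 of 10 adipocyte and 0 of 12 macrophage markers were called, and 3 and 2 had an unadjusted p under 0.05. Those 3 adipocyte markers were higher in IgG1, and all 10 had a positive fold change (median 0.57 on the log2 scale). Of the 2 macrophage markers 1 was higher and 1 lower. Gfral, the receptor that 3P10 binds, had 0 reads in all 15 libraries, and Gdf15, which encodes its ligand, had 46 reads in all, 14 of them in NTB, 13 in IgG1 and 19 in 3P10, too few to be tested.

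Genes with a Benjamini-Hochberg adjusted p below 0.05 over the 13283 tested in edgeR's quasi-likelihood fit are referred to as called. Every change printed with a standard error (SE) is a log2 fold change of CPM, IgG1 against NTB. IgG1 differed from NTB in 744 genes (5.6% of those tested), of which 356 rose (2.68%) and 388 fell (2.92%). The change was at least 2-fold for 99 of the genes that rose and 168 of those that fell. The median fold change over all tested genes was 0.01 on the log2 scale. Among the 744 genes, the 5 IgG1 libraries lay wholly above or below the 5 NTB libraries for 527, and over all tested genes this held for 848 (6.38%). With the library number term, 2455 genes were called (18.5%), 1217 higher (9.16%) and 1238 lower (9.32%), and all 744 were among them with the same sign. Without a single library the count ran from 327 (without NTB replicate 1) to 1307 (without IgG1 replicate 1). In the 11 libraries numbered below 14 alone, 876 genes were called, of which 512 were among the 744.

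**Figure D2:**
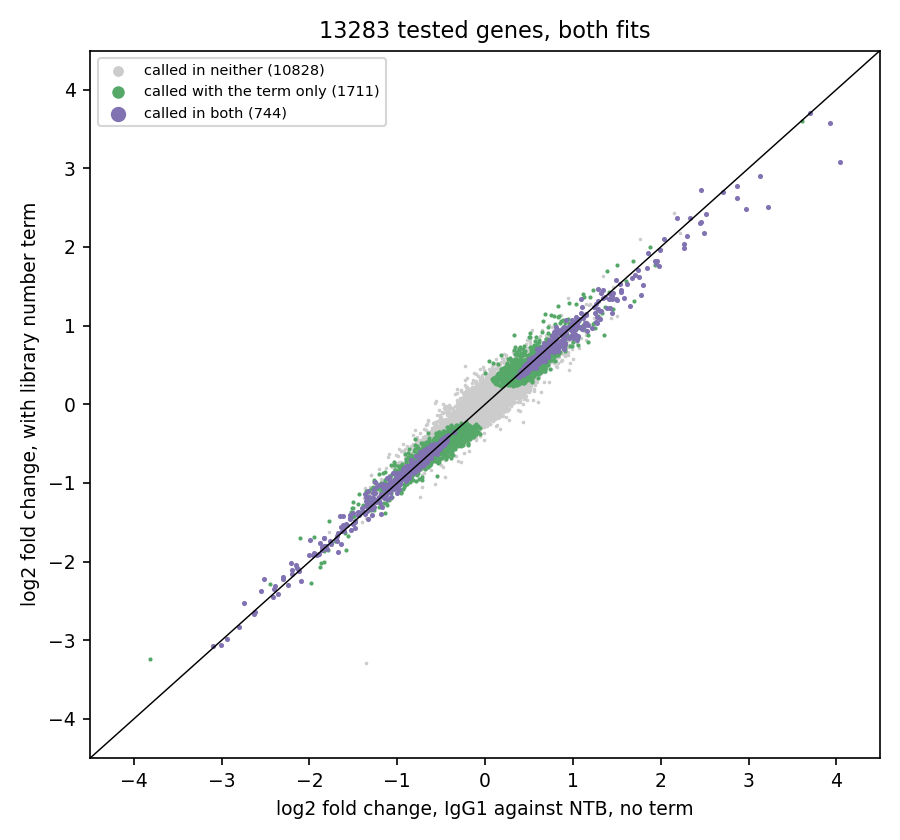
Log2 fold change of IgG1 against NTB for 13283 genes without the library number term (horizontal) and with it (vertical); colours mark genes called in neither fit, with the term only, or in both, and the line marks equal values. Points follow the line, and 744 genes were called in both fits.

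Genes of the glucocorticoid response formed the list with the most calls among genes that rose. Of 31 tested members of this list of genes known to be raised by glucocorticoids, 15 rose and 1, Rhobtb1, fell, against 2.68% and 2.92% of all tested genes, and the median fold change was 0.88 on the log2 scale against 0.01 over all genes. With the term 21 rose and 1 fell, against 9.16% and 9.32% of all genes. In the 11 libraries numbered below 14 alone, 17 rose and 0 fell. With the replicate number as a block, 10 rose and 0 fell. Rhobtb1 kept its call in 4 of 15 fits without the term that left out 1 library. Among genes that rose, Glul kept its call in 9 of these fits and Klf15 in 13. Ddit4, Cebpd, Mt1, Mt2, Pik3r1, Gadd45a, Per1, Glul and Sesn1 are also on other lists below, so the lists are not independent of each other.

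Fkbp5 encodes a co-chaperone of the glucocorticoid receptor and is a standard readout of its activity. Its level was 56.2, 23.5, 35.7, 35.8 and 64.7 CPM in NTB and 84.3, 152, 109, 173 and 108 CPM in IgG1. Every IgG1 library was above every NTB library, and the log2 fold change was 1.54 ± 0.32 SE (adjusted p = 0.0116), or 1.53 ± 0.32 SE with the term. In 3P10 the range was 35.1 to 108 CPM. Sgk1 encodes a kinase related to AKT that glucocorticoids induce. Sgk1 stood at 110.2, 97.6, 116, 111 and 126 CPM in NTB and at 232, 330.5, 262, 358 and 266 CPM in IgG1, with no overlap and a narrow spread in both groups (log2 fold change 1.37 ± 0.19 SE, adjusted p = 0.00125). The 3P10 range for Sgk1, 78.2 to 180.2 CPM, lay below the IgG1 range. Klf15 encodes a Kruppel-like factor that raises amino acid breakdown in muscle. It rose from 15.04 to 23.3 CPM to 27 to 44.9 CPM (log2 fold change 0.90 ± 0.20 SE, adjusted p = 0.0177), and it was not called without NTB replicate 1 or NTB replicate 2, with adjusted p up to 0.0575. Klf15 had an adjusted p of 0.000565 with the term. Pik3r1 encodes the regulatory subunit of phosphoinositide 3-kinase. It rose by 1.26 ± 0.23 SE (adjusted p = 0.00613) with no overlap. Arrdc3, an alpha-arrestin that directs membrane receptors to endosomes, had 28.3, 35.6, 56.7, 34 and 31.05 CPM in NTB and 67.6, 123, 168, 268 and 86.6 CPM in IgG1. The highest NTB value was that of replicate 3, and the groups still did not overlap (log2 fold change 1.94 ± 0.32 SE, adjusted p = 0.00294). Map3k6, a stress-activated kinase, rose from 2.62 to 8.79 to 15.7 to 30.0 CPM (log2 fold change 1.84 ± 0.29 SE, adjusted p = 0.00294).

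Among brakes on mTOR, Ddit4 changed most. Of 17 tested members of the list of mTOR brakes and translation control, 5 rose and 0 fell (29.4% called, against 5.6% of all genes). With the term 10 rose and 0 fell (58.8%, against 18.5%). Ddit4 encodes REDD1, which inhibits mTOR complex 1. Its level was 8.005, 8.42, 5.35, 9.05 and 12.3 CPM in NTB and 17.8, 58.2, 220.2, 239.8 and 24.7 CPM in IgG1. All IgG1 libraries were above all NTB libraries, but they spread over more than 10-fold, with replicates 3 and 4 highest and replicates 1 and 5 closest to NTB. The log2 fold change was 3.70 ± 0.63 SE (adjusted p = 0.00408), and 3.70 ± 0.64 SE with the term. In 3P10 it was 15.3, 5.31, 9.97, 7.43 and 8.80 CPM, within or near the NTB range. Eif4ebp1 encodes 4E-BP1, which holds back cap-dependent translation when mTOR is inactive. It had 22.9, 26.7, 51.6, 32.04 and 37.0 CPM in NTB and 75.0, 181, 70.9, 188 and 78.7 CPM in IgG1. Both groups had their highest values in libraries numbered 14 or higher, and the groups did not overlap (log2 fold change 1.80 ± 0.31 SE, adjusted p = 0.00408; 1.51 ± 0.15 SE with the term). Sesn1, a sestrin that relays amino acid shortage to mTOR, rose by 0.87 ± 0.17 SE (adjusted p = 0.00884), and Eef2k, the kinase that slows elongation, by 0.60 ± 0.13 SE (adjusted p = 0.0124). Akt1s1, the PRAS40 subunit of the mTOR complex, was the other called member, at 0.53 ± 0.14 SE (adjusted p = 0.0383), and it lost its call in 8 of 15 fits that left out a library (adjusted p up to 0.111).

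**Figure D3:**
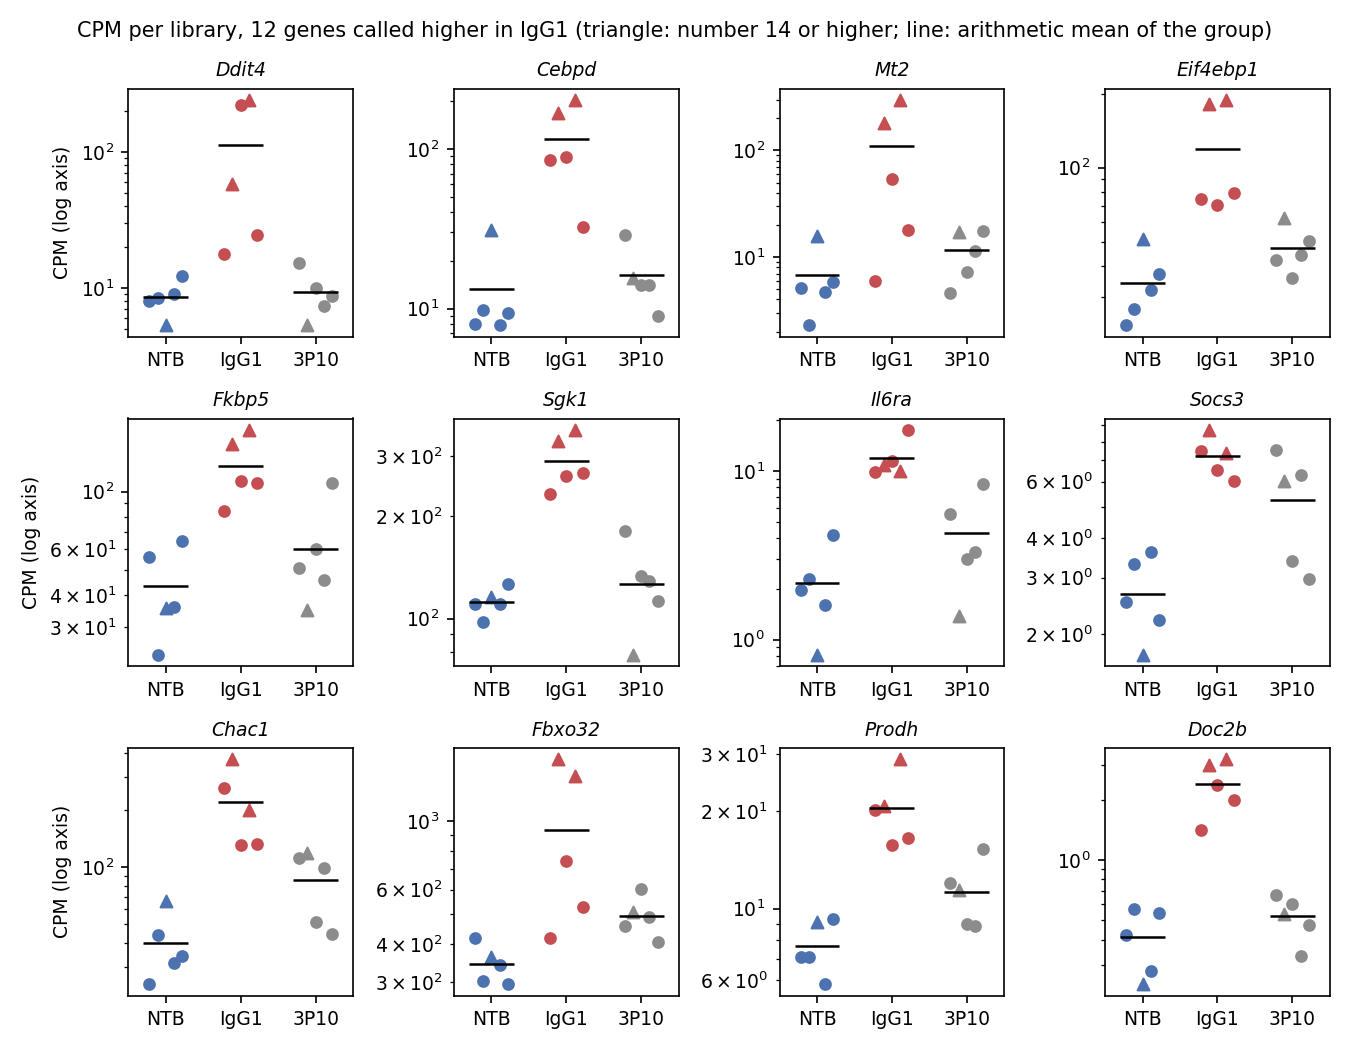
CPM per library (log axes) of 12 genes called higher in IgG1, by group; circles are libraries numbered below 14, triangles those numbered 14 or higher, and lines the arithmetic group means. Ddit4 and Mt2 spread widely within IgG1, while Sgk1 and Socs3 form tight groups above NTB, and 3P10 means lie between or near NTB.

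The interleukin-6 receptor gene and STAT3 feedback genes were higher in IgG1. Of 24 tested genes of the interleukin-6 family, STAT3 feedback and the acute phase, 8 rose and 1, Timp1, fell, with a median of 0.70 on the log2 scale. The share called was 37.5%, against 5.6% of all genes. With the term 10 rose and 1 fell (45.8%, against 18.5%), and in the libraries numbered below 14 alone 6 rose and 1 fell. Timp1 kept its call in 9 of 15 fits without the term that left out 1 library. Il6ra encodes the receptor subunit that binds interleukin-6. It had 1.97, 2.28, 0.812, 1.61 and 4.18 CPM in NTB and 9.84, 10.9, 11.4, 10.0 and 17.6 CPM in IgG1. Replicate 5 was highest in both groups, and the groups did not overlap (log2 fold change 2.45 ± 0.43 SE, adjusted p = 0.00451). Socs3 encodes the feedback inhibitor that STAT3 induces. Its values were 2.52, 3.32, 1.72, 3.60 and 2.20 CPM in NTB, 7.47, 8.71, 6.51, 7.35 and 6.02 CPM in IgG1 and 7.55, 6.02, 3.39, 6.29 and 2.96 CPM in 3P10. The IgG1 values were all above those of NTB (log2 fold change 1.42 ± 0.26 SE, adjusted p = 0.00575), and 3P10 reached from near NTB into the IgG1 range. Stat3 itself stood at 62.2, 63.0, 40.5, 63.5 and 61.9 CPM in NTB and 74.9, 92.8, 100.4, 70.3 and 105 CPM in IgG1, an increase of 0.61 ± 0.17 SE close to the threshold (adjusted p = 0.0496). It was not called without NTB replicate 1, NTB replicate 2, NTB replicate 3, NTB replicate 4, NTB replicate 5, IgG1 replicate 2, IgG1 replicate 3, IgG1 replicate 4, IgG1 replicate 5, 3P10 replicate 1, 3P10 replicate 3, 3P10 replicate 4 or 3P10 replicate 5, with adjusted p up to 0.104. With the term its adjusted p was 0.00173.

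Cebpd encodes C/EBP delta, an acute phase transcription factor that both STAT3 and glucocorticoids raise. It had 8.04, 9.87, 31.04, 7.86 and 9.40 CPM in NTB and 84.6, 168, 88.9, 201 and 32.4 CPM in IgG1. NTB replicate 3, a library numbered above 14, was the highest control and came within 2 CPM of IgG1 replicate 5, the lowest tumour value, without overlap. The log2 fold change was 3.13 ± 0.51 SE (adjusted p = 0.00294), and 2.90 ± 0.35 SE with the term. Cebpb, its relative, rose by 1.04 ± 0.21 SE (adjusted p = 0.01). Lcn2, which encodes the acute phase protein lipocalin 2, had 0.323, 0.268, 1.43, 0.245 and 1.01 CPM in NTB and 0.842, 10.96, 1.99, 4.29 and 5.16 CPM in IgG1, so the groups overlapped at low levels (log2 fold change 2.87 ± 0.67 SE, adjusted p = 0.0215). It was not called without NTB replicate 1, NTB replicate 2, NTB replicate 4 or IgG1 replicate 2, with adjusted p up to 0.0672. Cish, a suppressor of cytokine signalling that STAT5 induces, rose by 2.45 ± 0.56 SE (adjusted p = 0.0184) and was not called without NTB replicate 1, with adjusted p up to 0.0591. Cxcl13, a chemokine that attracts B cells, had the largest fold change of any named gene whose groups did not overlap. It had 0.549, 0.134, 0.0955, 0.140 and 0.464 CPM in NTB and 1.95, 5.48, 1.505, 9.84 and 2.99 CPM in IgG1 (log2 fold change 3.93 ± 0.70 SE, adjusted p = 0.00513). NTB replicate 3 lay at the level of 2 counts, so the size of the fold rests on few reads. Of 15 tested cytokine genes of the NF-kB list 0 were called by edgeR without the term, where 4 had an unadjusted p under 0.05. With the term 1 was higher and 2 lower, in the libraries numbered below 14 alone 2 were lower, and DESeq2 called 1 in each direction. Of 29 interferon response genes 1 rose (3.45%), near the 2.68% of all genes, and 2 rose with the term (6.9%, against 9.16% of all genes).

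Metallothioneins bind zinc and copper, and metals, glucocorticoids and interleukin-6 are all known to induce them. Mt2 had 5.13, 2.28, 15.9, 4.72 and 5.84 CPM in NTB and 6.01, 179.7, 53.9, 296 and 18.1 CPM in IgG1, and Mt1 had 15.8, 6.71, 28.5, 6.04 and 10.0 CPM in NTB and 12.7, 177, 73.5, 318 and 39.9 CPM in IgG1. For both genes IgG1 replicate 1 lay within the NTB range while the other 4 IgG1 libraries were above every NTB library. The log2 fold change was 4.04 ± 0.86 SE for Mt2 (adjusted p = 0.0138), or 3.08 ± 0.57 SE with the term, and 3.216 ± 0.70 SE for Mt1 (adjusted p = 0.0153), or 2.51 ± 0.46 SE with the term. In 3P10 the range was 4.64 to 17.5 CPM for Mt2 and 9.89 to 27.5 CPM for Mt1. Of 11 tested genes for metallothioneins and zinc transport only these 2 were called in the fit without the term (18.2%, against 5.6% of all genes). With the term 3 rose (27.3%, against 18.5% of all genes called). The 250 bases before the Mt2 start are shown because the core of the metal response element occurs there more than once. The sequence is from RefSeq on GRCm38.p6, plus strand, chr8:94172368-94172617, and capitals mark the letters TGCACNC or TGCGCNC on either strand:
Mt2: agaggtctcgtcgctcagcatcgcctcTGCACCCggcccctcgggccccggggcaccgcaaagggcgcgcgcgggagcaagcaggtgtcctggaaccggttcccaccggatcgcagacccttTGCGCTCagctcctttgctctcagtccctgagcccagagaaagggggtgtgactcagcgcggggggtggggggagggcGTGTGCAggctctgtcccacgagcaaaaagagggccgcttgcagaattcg
Mt2 held 3 matches and the same window of Mt1 held 1. Of 32851 such windows in RefSeq, 21.4% held at least 1, so a single match is common. The share of windows with 3 matches was not computed. Among 8 genes searched, 5 held at least 1 match: Mt1, Mt2, Ddit4, Per1 and Arrdc3. A match describes the letters and not a site in use.

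Chac1 changed more than other genes of amino acid stress. It encodes an enzyme that degrades glutathione, and ATF4, the factor of the integrated stress response, is known to induce it. The levels were 24.2, 44.1, 66.7, 31.5 and 33.9 CPM in NTB, 262, 371, 131, 201 and 132 CPM in IgG1 and 111.9, 119, 51.4, 99.6 and 44.5 CPM in 3P10. Every IgG1 value was above every NTB value and above every 3P10 value (log2 fold change against NTB 2.45 ± 0.37 SE, adjusted p = 0.00206). Among 26 tested genes of the integrated stress response, Chac1 and Eif4ebp1 rose, Aldh18a1, an enzyme of proline synthesis, fell, and 23 were not called. Aldh18a1 changed by -0.75 ± 0.18 SE (adjusted p = 0.0219) and was not called without NTB replicate 2, NTB replicate 4, NTB replicate 5 or IgG1 replicate 4, with adjusted p up to 0.0651. Without the term 11.5% of the list was called, against 5.6% of all genes. With it 7 rose and 3 fell (38.5%, against 18.5%). The window before the Chac1 start is shown because it holds the core letters of the element that ATF4 binds together with C/EBP factors. It lies at chr2:119350992-119351241 on the plus strand of GRCm38.p6 (RefSeq), and capitals mark TGATGCAA, here read from the opposite strand:
Chac1: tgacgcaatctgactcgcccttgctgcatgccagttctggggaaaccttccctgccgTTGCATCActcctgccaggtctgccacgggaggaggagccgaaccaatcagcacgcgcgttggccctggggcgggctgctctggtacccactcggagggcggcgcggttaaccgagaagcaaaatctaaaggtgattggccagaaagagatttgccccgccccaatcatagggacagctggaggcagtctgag
Of all 32851 windows, 0.791% held these letters. Among 8 genes searched (Mt1, Mt2, Chac1, Ddit4, Per1, Fkbp5, Il6ra and Arrdc3), 1, Chac1, held them.

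Of 36 tested genes for amino acid breakdown and transport, 5 rose and 1 fell, against 2.68% and 2.92% of all genes. With the term 6 rose and 5 fell, against 9.16% and 9.32%. Prodh encodes proline dehydrogenase, the first enzyme of proline breakdown. It had 7.07, 7.08, 9.07, 5.84 and 9.32 CPM in NTB and 20.2, 20.8, 15.7, 28.99 and 16.6 CPM in IgG1, with no overlap (log2 fold change 1.42 ± 0.20 SE, adjusted p = 0.00137). Aldh4a1, the next enzyme of that path, went the other way. Its values were 83.1, 81.8, 58.5, 92.0 and 91.7 CPM in NTB and 68.2, 34.4, 38.1, 29.6 and 34.7 CPM in IgG1, and only IgG1 replicate 1 reached the NTB range (log2 fold change -0.99 ± 0.22 SE, adjusted p = 0.0162). Gpt2, mitochondrial alanine aminotransferase, rose from 159 to 202 CPM to 309 to 414 CPM (log2 fold change 0.92 ± 0.12 SE, adjusted p = 0.000869). Glul, glutamine synthetase, had 156, 189.8, 393, 189 and 258 CPM in NTB and 325, 715, 402, 951 and 368 CPM in IgG1, and NTB replicate 3 overlapped the IgG1 group. It rose by 1.22 ± 0.32 SE (adjusted p = 0.0359) and was not called without NTB replicate 1, NTB replicate 2, NTB replicate 4, NTB replicate 5, IgG1 replicate 2 or IgG1 replicate 4, with adjusted p up to 0.108, while its adjusted p with the term was 0.00162.

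Of the muscle ubiquitin ligases, Fbxo32 was called and Trim63 was not. Fbxo32 encodes atrogin-1, and its values were 417, 302, 362, 342 and 295 CPM in NTB and 417, 1590.0, 746, 1408 and 525 CPM in IgG1. IgG1 replicates 2 and 4, both numbered 14 or higher, were the highest, and IgG1 replicate 1 did not exceed the top NTB value. The log2 fold change was 1.45 ± 0.30 SE (adjusted p = 0.0125), or 1.16 ± 0.24 SE with the term. Trim63 encodes MuRF1, which tags thick filament proteins. It had 257, 233, 429, 306 and 244 CPM in NTB and 263, 883, 391, 764 and 274 CPM in IgG1, and differed by 0.81 ± 0.32 SE on the log2 scale (adjusted p = 0.154), or 0.48 ± 0.17 SE with the term (adjusted p = 0.0545). Of 28 tested ligases and their partners 2, Fbxo32 and Fbxo31, rose and 0 fell (7.14% called, against 5.6% of all genes). The median was 0.06 on the log2 scale. With the term 8 rose and 0 fell (28.6%, against 18.5%). Fbxo31 rose by 0.52 ± 0.13 SE (adjusted p = 0.0327), a call that 8 of 15 fits without 1 library did not make (adjusted p up to 0.0833). Of 32 proteasome subunit genes Psmd8 rose, by 0.99 ± 0.19 SE (adjusted p = 0.00744), while 30 of the 32 had a positive fold change and the median was 0.23 on the log2 scale without the term and 0.07 with it. With the term 4 of the 32 rose, against 9.16% of all genes.

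Autophagy and lysosome genes rose in part. Of 34 tested, 6 rose and 1 fell (20.6% called, against 5.6% of all genes). With the term 14 rose and 1 fell (44.1%, against 18.5%). The gene listed as 8430408G22Rik encodes DEPP1, a FoxO target. It had 5.13, 2.79, 7.498, 6.08 and 4.41 CPM in NTB and 7.08, 102, 24.3, 45.9 and 23.1 CPM in IgG1, and only IgG1 replicate 1 fell within the NTB range (log2 fold change 2.97 ± 0.60 SE, adjusted p = 0.00998). Trp53inp1, a stress-induced autophagy gene, rose from 10.9 to 12.8 to 16.2 to 32.02 CPM (log2 fold change 1.07 ± 0.17 SE, adjusted p = 0.00294). Its relative Trp53inp2 fell by 1.15 ± 0.27 SE (adjusted p = 0.0211) and was not called without NTB replicate 1, NTB replicate 4 or IgG1 replicate 2, with adjusted p up to 0.0614. Map1lc3b, which encodes the autophagosome coat protein LC3B, rose by 0.83 ± 0.19 SE (adjusted p = 0.0211) and was not called without NTB replicate 1, NTB replicate 2, NTB replicate 4, IgG1 replicate 2 or IgG1 replicate 4, with adjusted p up to 0.0653. Bnip3, a mitophagy receptor, rose by 1.16 ± 0.26 SE (adjusted p = 0.0178) and was not called without NTB replicate 1, NTB replicate 2 or IgG1 replicate 4, with adjusted p up to 0.0544. With the term, the adjusted p was 0.000591 for Map1lc3b and 0.00074 for Bnip3.

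In insulin and FoxO signalling, Pik3r1, Akt1, Igf1r and Igfbp3 rose among 26 tested genes and 0 fell without the term, while 9 rose and 4 fell with it and DESeq2 called 4 higher and 2 lower. The share called was 15.4% without the term and 50% with it, against 5.6% and 18.5% of all genes. The call was lost in 7 of 15 fits without 1 library for Akt1 (adjusted p up to 0.0772) and in 3 for Igfbp3 (adjusted p up to 0.0607). Igf1r, the receptor for insulin-like growth factors, rose from 15.5 to 24.7 to 29.4 to 41.3 CPM (log2 fold change 0.82 ± 0.22 SE, adjusted p = 0.0393), a call lost in 11 of 15 fits without 1 library (adjusted p up to 0.109). Foxo3, which encodes a driver of atrophy genes, differed between the fits. It had 9.68, 9.46, 1.19, 9.19 and 12.6 CPM in NTB and 19.8, 5.48, 17.9, 5.06 and 19.3 CPM in IgG1. The lowest values of each group came from libraries numbered 14 or higher, and within each set of libraries IgG1 lay above NTB. The log2 fold change was 0.68 ± 0.55 SE without the term (adjusted p = 0.535) and 1.15 ± 0.17 SE with it (adjusted p = 0.000386). Mstn, which encodes the growth inhibitor myostatin, had 45.4, 51.7, 41.9, 67.3 and 50.8 CPM in NTB and 77.3, 65.2, 64.6, 64.4 and 61.1 CPM in IgG1. It differed by 0.37 ± 0.15 SE without the term (adjusted p = 0.171) and by 0.44 ± 0.12 SE with it (adjusted p = 0.0208). Igf1, the growth factor gene, differed by -0.05 ± 0.20 SE on the log2 scale (adjusted p = 0.934). Of 31 genes of myostatin, activin and BMP signalling 2 rose and 2 fell without the term (12.9% called, against 5.6% of all genes), 9 rose and 7 fell with it (51.6%, against 18.5%), and DESeq2 called 5 higher and 4 lower. Fstl1, a secreted follistatin-like glycoprotein, fell from 48.1 to 74.2 to 20.6 to 38.0 CPM (log2 fold change -1.14 ± 0.17 SE, adjusted p = 0.00235).

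Core clock genes were called in 1 direction. Of 19 tested, 5 rose, Per1 and Cry2 among them, and 0 fell (26.3% called, against 5.6% of all genes). With the term 6 rose and 0 fell (31.6%, against 18.5%). In the libraries numbered below 14 alone 6 rose and 0 fell, and with the replicate number as a block 3 rose and 0 fell. At an unadjusted p under 0.05 in edgeR, 9 of the 19 were higher and 2 lower. Per1 kept its call in all 15 fits without 1 library, Cry2 in 13, Rora in 12, and Cirbp and Csnk1e in 9 each. Per1 encodes a repressor of the clock that glucocorticoids also induce. It had 32.5, 51.3, 58.6, 25.9 and 48.1 CPM in NTB and 101.1, 69.7, 112.1, 104 and 92.3 CPM in IgG1, with no overlap, and 46.2, 33.2, 41.4, 44.0 and 32.6 CPM in 3P10 (log2 fold change against NTB 1.15 ± 0.21 SE, adjusted p = 0.00513). The hour at which tissue was taken is not given in the labels. The window before 1 of the Per1 starts is shown because it holds the E-box that the clock activators bind. It lies at chr11:69098699-69098948 on the plus strand of GRCm38.p6 (RefSeq), and capitals mark CACGTG, which reads the same on both strands:
Per1: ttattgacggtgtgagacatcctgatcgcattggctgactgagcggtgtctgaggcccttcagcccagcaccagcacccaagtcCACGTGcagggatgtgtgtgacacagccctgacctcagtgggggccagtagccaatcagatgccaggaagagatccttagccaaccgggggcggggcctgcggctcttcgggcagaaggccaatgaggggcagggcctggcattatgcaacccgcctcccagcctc
These letters occurred in 6.02% of all windows, and among the 8 genes searched in Per1, Fkbp5 and Il6ra.

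Some genes of growth arrest and the immediate early response rose. Of 20 growth arrest and p53 targets 6 rose, 1, Plk2, fell and 13 were not called (35% called, against 5.6% of all genes). With the term 10 rose and 1 fell (55%, against 18.5%). Plk2 kept its call in 4 of 15 fits without the term that left out 1 library, and Phlda3, which rose, kept its call in 11. With the replicate number as a block 5 of the 20 rose and 0 fell. Gadd45a, a stress gene that also rises in denervated muscle, had 20.7, 17.99, 30.5, 20.8 and 23.8 CPM in NTB and 38.6, 77.7, 42.1, 41.4 and 41.4 CPM in IgG1. Replicate 2 stood above the other IgG1 libraries, and the groups did not overlap (log2 fold change 1.08 ± 0.24 SE, adjusted p = 0.0157). Of 27 immediate early genes 7 rose, 0 fell and 20 were not called (25.9% called, against 5.6% of all genes). With the term 7 rose and 1 fell (29.6%, against 18.5%). At an unadjusted p under 0.05 in edgeR, 12 of the 27 were higher and 2 lower. IgG1 and NTB did not overlap for 2 of the 27, against 6.38% of all genes. Klf6, a zinc finger factor, rose by 1.034 ± 0.20 SE (adjusted p = 0.0074) and kept its call in all 15 fits without 1 library. Junb kept its call in 11 of these fits, Zfp36 in 10 and Jun in 9. Of 23 tested cell cycle genes 0 rose and 5 fell, with or without the term, 18 were not called, and the median was -0.21 on the log2 scale. The share called was 21.7% in both fits, against 5.6% of all genes without the term and 18.5% with it. Ccnd1 encodes cyclin D1. It had 7.78, 9.03, 3.87, 9.54 and 2.32 CPM in NTB and 2.49, 1.42, 1.85, 1.32 and 1.77 CPM in IgG1, and NTB replicate 5 fell within the IgG1 range (log2 fold change -1.88 ± 0.32 SE, adjusted p = 0.00406). Aurka, a mitotic kinase, fell from 5.71 to 7.93 to 3.19 to 4.66 CPM (log2 fold change -0.87 ± 0.16 SE, adjusted p = 0.00645). The proliferation markers Mki67 and Top2a, which were also called, were at most 1.68 CPM in any NTB or IgG1 library. Leaving out 1 library ended the call in 7 of 15 fits for Mki67 (adjusted p up to 0.0712), in 10 for Top2a (adjusted p up to 0.109) and in 4 for the mitotic kinase Cdk1 (adjusted p up to 0.0755).

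Collagen genes formed the list with the largest share of members lower in IgG1. Of 20 tested, 0 rose and 10 fell, against 2.92% of all genes that fell, all 20 had a negative fold change, and the median was -1.05 on the log2 scale. With the term 18 fell, against 9.32% of all genes, with a median of -0.89. In the libraries numbered below 14 alone 12 fell. The fibril-forming Col1a1 had 91.0, 109, 70.0, 101.0 and 82.8 CPM in NTB, 50.2, 11.6, 24.7, 14 and 24.9 CPM in IgG1 and 49.7, 38.7, 51.4, 30.4 and 35 CPM in 3P10. IgG1 replicates 2 and 4 were lowest and replicate 1 highest, and all 5 lay below NTB (log2 fold change -1.86 ± 0.31 SE, adjusted p = 0.00397; -1.81 ± 0.24 SE with the term). Col1a2, its partner chain, fell by 1.81 ± 0.32 SE (adjusted p = 0.00481). Col3a1, the collagen of fine fibrils, had 216, 275, 135, 249.9 and 165 CPM in NTB and 164, 21.4, 39.5, 22.5 and 44.5 CPM in IgG1. IgG1 replicate 1 lay within the NTB range and the other 4 were at less than 50 CPM. Its log2 fold change was -1.84 ± 0.45 SE (adjusted p = 0.0264). It was not called without NTB replicate 1, NTB replicate 2, NTB replicate 4, IgG1 replicate 2, IgG1 replicate 3, IgG1 replicate 4 or IgG1 replicate 5, with adjusted p up to 0.0662, while without IgG1 replicate 1 the change was -2.70.

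The 3 collagen VI chains, which form the microfibrils around each fibre, fell together. Col6a2 had 74.9, 93.5, 68.5, 95.7 and 61.6 CPM in NTB and 36.9, 15.4, 24.2, 20.04 and 26.9 CPM in IgG1 (log2 fold change -1.68 ± 0.21 SE, adjusted p = 0.000869). Col6a1 fell by 1.29 ± 0.18 SE (adjusted p = 0.00125) and Col6a3 fell by 1.28 ± 0.22 SE (adjusted p = 0.00418), and none of the 3 chains overlapped between the groups. Col15a1, a basement membrane zone collagen, fell by 1.64 ± 0.26 SE (adjusted p = 0.00275). The largest collagen changes were in the minor fibril chains Col11a1, -2.74 ± 0.50 SE (adjusted p = 0.00575), and Col24a1, -2.12 ± 0.40 SE (adjusted p = 0.00627). The basement membrane chain Col4a1 showed the library split. It had 176, 144, 63.2, 172 and 123 CPM in NTB and 111, 35.8, 68.1, 40.8 and 78.5 CPM in IgG1, where NTB replicate 3 lay inside the IgG1 range. The fold change was -1.02 ± 0.31 SE without the term (adjusted p = 0.0652) and -0.84 ± 0.14 SE with it (adjusted p = 0.00101).

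Many other genes of the matrix were lower. Of 49 tested genes for matrix glycoproteins, matrix enzymes and collagen processing, 17 fell and 1, Lox, rose, with a median of -0.63 on the log2 scale. With the term 31 fell and 1 rose. The share called was 36.7% without the term and 65.3% with it, against 5.6% and 18.5% of all genes. Mfap4, a microfibril protein, had 12.1, 15.2, 15.6, 18.6 and 8.43 CPM in NTB and 3.56, 0.992, 1.47, 1.62 and 1.44 CPM in IgG1, with IgG1 replicate 1 highest in its group and no overlap (log2 fold change -2.94 ± 0.40 SE, adjusted p = 0.00105). Sparc, a collagen-binding glycoprotein, had 283, 312, 241, 267 and 231 CPM in NTB and 115, 110.2, 137, 126 and 161 CPM in IgG1, again without overlap (log2 fold change -1.04 ± 0.14 SE, adjusted p = 0.00125). Postn, periostin, fell by 1.26 ± 0.17 SE (adjusted p = 0.00105), the elastic fibre gene Fbn1 fell by 1.62 ± 0.34 SE (adjusted p = 0.0128) and fibronectin, Fn1, fell by 0.69 ± 0.14 SE (adjusted p = 0.00924). Serpinh1, the collagen chaperone, fell by 0.997 ± 0.18 SE (adjusted p = 0.00575), and Loxl2, a collagen cross-linking enzyme, fell by 1.58 ± 0.24 SE (adjusted p = 0.00206). Lox, a relative of Loxl2 with the same chemistry, rose. Its values were 7.17, 8.36, 4.54, 7.23 and 8.70 CPM in NTB and 10.9, 14.02, 12.9, 19.7 and 19.6 CPM in IgG1, with no overlap (log2 fold change 1.10 ± 0.22 SE, adjusted p = 0.00931).

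**Figure D4:**
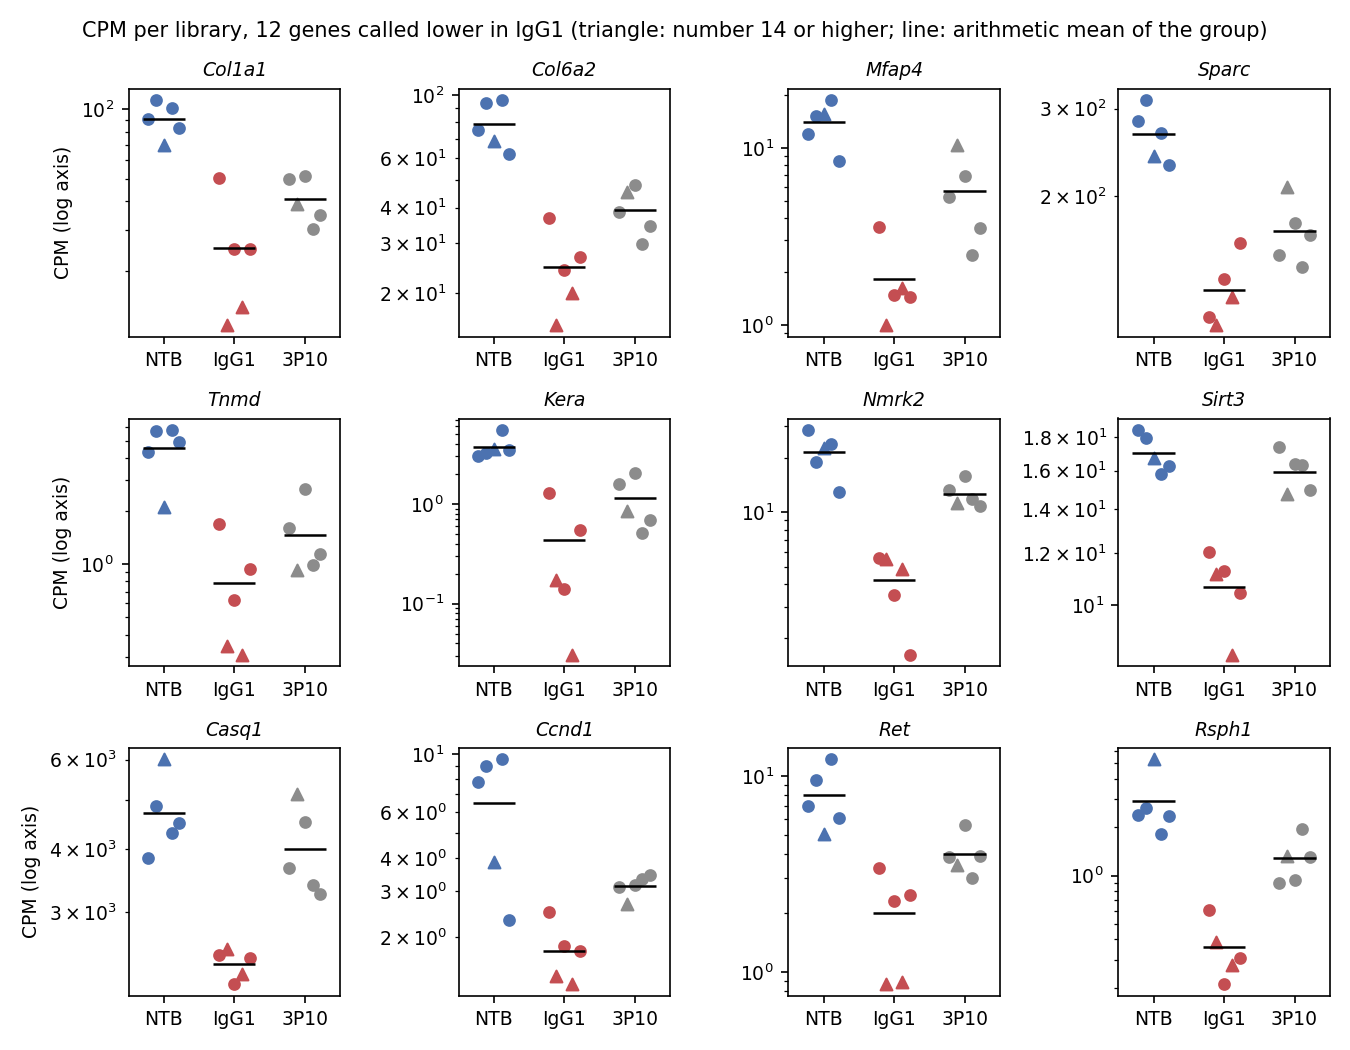
CPM per library (log axes) of 12 genes called lower in IgG1, by group; circles are libraries numbered below 14, triangles those numbered 14 or higher, and lines the arithmetic group means. All 5 IgG1 libraries lie below all 5 NTB libraries in each panel but that of Ccnd1, and 3P10 means lie between the means of the other groups.

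Part of the tendon and fibroblast markers fell as well. Of 11 tested markers of tendon and muscle connective tissue 4 fell, 0 rose and 7 were not called, with a median of -1.39 on the log2 scale. With the term 8 fell. The share called was 36.4% without the term and 72.7% with it, against 5.6% and 18.5% of all genes. Fold changes were negative for 9 and positive for 2, Scx (0.41 ± 0.26 SE, adjusted p = 0.401) and Prg4 (0.34 ± 0.35 SE, adjusted p = 0.639). The summed level of the 11 markers spanned 86.0 to 147 CPM for NTB and 27.95 to 75.9 for IgG1, which did not overlap. Over all 15 libraries it was 27.95 to 86.0 CPM in those numbered 14 or higher and 41.0 to 147 in the rest. The lowest value of each group came from a library numbered 14 or higher. Tnmd, a tendon membrane protein, had 4.36, 5.67, 2.10, 5.80 and 4.95 CPM in NTB and 1.68, 0.345, 0.630, 0.306 and 0.947 CPM in IgG1 (log2 fold change -2.55 ± 0.44 SE, adjusted p = 0.00408). Kera, the tendon and corneal proteoglycan keratocan, had 3.00, 3.222, 3.53, 5.56 and 3.44 CPM in NTB and 1.30, 0.173, 0.140, 0.0306 and 0.550 CPM in IgG1 (log2 fold change -3.10 ± 0.59 SE, adjusted p = 0.0074). The lowest IgG1 value of Kera was that of 1 count. Chad, the cartilage and tendon protein chondroadherin, fell by 2.30 ± 0.48 SE (adjusted p = 0.0129). Of 11 fibroblast markers 5 fell, 0 rose and 6 were not called (45.5% called, against 5.6% of all genes). With the term 7 fell (63.6%, against 18.5%). The 5 were Mfap5, Pi16, Cd34 and the collagens Col1a1 and Col3a1 described above. Pi16 kept its call in 9 of 15 fits without 1 library and Cd34 in 3. All 11 had a negative fold change, but Pdgfra, Pdgfrb, Dcn and Gsn were not called (adjusted p = 0.303, 0.322, 0.925 and 0.73). The summed level of the fibroblast markers spanned 1577 to 2038 CPM for NTB and 1162 to 1600 for IgG1, which overlapped. How much tendon or connective tissue each sample held was not measured apart, and its part in the matrix result was not tested. Of 10 endothelial markers 1, Emcn, fell (-0.85 ± 0.21 SE, adjusted p = 0.0284; not called without NTB replicate 1, NTB replicate 2, NTB replicate 4, IgG1 replicate 2 or IgG1 replicate 4, with adjusted p up to 0.0876), and with the term 4 fell. The share of endothelial markers called was 10% without the term and 40% with it, against 5.6% and 18.5% of all genes. Their summed level spanned 163 to 349 CPM for NTB and 114 to 244 for IgG1. This sum followed the library split: over the 15 libraries it was 114 to 170 CPM in those numbered 14 or higher and 201 to 349 in the rest. Aplnr, the apelin receptor of endothelial cells, fell from 9.03 to 23.1 to 1.10 to 6.05 CPM (log2 fold change -2.31 ± 0.37 SE, adjusted p = 0.00294). Pcdh12, an endothelial protocadherin, fell by 2.21 ± 0.38 SE (adjusted p = 0.00418).

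Genes of oxidative phosphorylation were lower by small amounts that the fit with the term called. Of 59 nuclear subunit genes 1, Cycs, which encodes cytochrome c, was called without the term, and 40 fell and 0 rose with it, against 9.32% of all genes that fell. Of the 59, 54 had a negative fold change, and the median was -0.32 on the log2 scale without the term and -0.41 with it. In the libraries numbered below 14 alone 12 fell. Cycs had 143, 135, 178, 127 and 127 CPM in NTB and 122, 103, 89.5, 86.2 and 74.6 CPM in IgG1 (log2 fold change -0.58 ± 0.16 SE, adjusted p = 0.042), a call that 11 of 15 fits without 1 library did not make (adjusted p up to 0.109). Cox7a1, the muscle form of a cytochrome oxidase subunit, differed between the fits. Its values were 99.7, 88.6, 359.8, 74.3 and 78.9 CPM in NTB and 83.2, 102, 61.2, 88.9 and 49.8 CPM in IgG1, where NTB replicate 3 stood far above the rest. It differed by -0.86 ± 0.42 SE without the term (adjusted p = 0.259) and by -0.85 ± 0.21 SE with it (adjusted p = 0.00989). Of 27 genes of the tricarboxylic acid cycle and mitochondrial regulation 5 fell and 0 rose without the term, against 2.92% and 2.68% of all genes. With the term 10 fell and 2 rose (44.4% called, against 18.5% of all genes), and DESeq2 called 6 lower and 1 higher. A fit with the replicate number as a block called 2 of the 27 lower and 0 higher. Idh3a and Sucla2 each kept their call in 3 of 15 fits without 1 library, Perm1 in 7, Fh1 in 10 and Dnm1l in all 15. Dnm1l, which encodes the mitochondrial fission enzyme DRP1, had 77.8, 69.4, 68.9, 69.4 and 69.4 CPM in NTB and 49.7, 49.2, 49.7, 46.0 and 54.7 CPM in IgG1, with no overlap (log2 fold change -0.51 ± 0.10 SE, adjusted p = 0.00857). All 73 tested cytosolic ribosomal protein genes had a positive fold change, with a median of 0.44 without the term and 0.18 with it, and 1 of them, Rps27, at under 1 CPM in every NTB and IgG1 library, was called without the term. With the term 15 of the 73 rose (against 9.16% of all genes), and in the libraries numbered below 14 alone 8 rose. Reads of ribosomal protein genes can be shared with processed copies, so these values are uncertain.

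Genes of NAD metabolism included 1 of the largest falls. Nmrk2 encodes the muscle nicotinamide riboside kinase. It had 28.6, 18.96, 22.8, 23.9 and 12.9 CPM in NTB, 5.59, 5.52, 3.46, 4.87 and 1.62 CPM in IgG1 and 13.3, 11.2, 15.8, 11.8 and 10.8 CPM in 3P10. IgG1 replicate 5 was the lowest of all libraries, and the groups did not overlap (log2 fold change -2.35 ± 0.28 SE, adjusted p = 0.00052). Sirt3, the NAD-dependent deacetylase of mitochondria, had 18.5, 17.95, 16.7, 15.8 and 16.2 CPM in NTB and 12.02, 11.1, 11.3, 8.40 and 10.4 CPM in IgG1 (log2 fold change -0.68 ± 0.11 SE, adjusted p = 0.00326). Nmnat1, a nuclear enzyme of NAD synthesis, was the other of 3 genes that fell among 17 tested, against 2.92% of all genes. Without the term 0 of the 17 rose, with it 2 rose and 3 fell (29.4% called, against 18.5% of all genes). DESeq2 called 1 higher and 3 lower. Nmnat1 changed by -0.51 ± 0.13 SE (adjusted p = 0.0383), a call that 9 of 15 fits without 1 library did not make (adjusted p up to 0.0913).

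The myosin heavy chains of fast and slow fibres were not called. Log2 fold changes were 0.09 ± 0.21 SE for Myh4, the fastest type (adjusted p = 0.853), -0.22 ± 0.30 SE for Myh1 (adjusted p = 0.74), -0.64 ± 0.41 SE for Myh2 (adjusted p = 0.406) and 0.26 ± 0.33 SE for Myh7, the slow type (adjusted p = 0.716). Of 17 slow-fibre contractile genes 0 were called by edgeR with or without the term and 0 by DESeq2, and 1 had an unadjusted p under 0.05. Of 17 fast-fibre genes 1 rose and 1 fell without the term, while 4 rose and 6 fell with it (58.8% called, against 18.5% of all genes) and DESeq2 called 4 higher and 1 lower. The 1 that fell without the term was Casq1, which encodes the calcium store protein of fast fibres. It had 3839.9, 4853, 6013, 4310.2 and 4503 CPM in NTB and 2476, 2541, 2163, 2269 and 2440.3 CPM in IgG1, a gap of more than 1000 CPM between the groups (log2 fold change -0.98 ± 0.16 SE, adjusted p = 0.00326). In 3P10 it had 3254 to 5147 CPM. Stac3, a partner of the calcium channel in excitation-contraction coupling, fell from 325 to 499 to 208 to 289 CPM (log2 fold change -0.72 ± 0.15 SE, adjusted p = 0.0145). Mylk2, the kinase of the fast myosin light chain, rose by 0.89 ± 0.16 SE (adjusted p = 0.00597). Of 22 satellite cell and myogenic genes 1 rose and 3 fell (18.2% called, against 5.6% of all genes). With the term 4 rose and 3 fell (31.8%, against 18.5%). In the libraries numbered below 14 alone 2 rose and 1 fell, and with the replicate number as a block 1 rose and 1 fell. Heyl, a Notch target of quiescent satellite cells, fell from 8.26 to 11.3 to 4.14 to 5.82 CPM (log2 fold change -0.95 ± 0.14 SE, adjusted p = 0.00173), and Cdh15, M-cadherin, rose by 0.76 ± 0.14 SE (adjusted p = 0.00472).

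Among secreted factors of muscle, 5 of 18 tested genes fell and 0 rose (27.8% called, against 5.6% of all genes). With the term 5 fell and 1 rose (33.3%, against 18.5%). Metrnl, which encodes meteorin-like, fell from 3.46 to 5.01 to 1.90 to 2.49 CPM (log2 fold change -0.87 ± 0.15 SE, adjusted p = 0.00453). Ostn, musclin, had 33.3, 27.6, 19.5, 41.4 and 22.5 CPM in NTB and 20.6, 8.45, 9.66, 3.83 and 7.49 CPM in IgG1 and changed by -1.53 ± 0.37 SE (adjusted p = 0.0254). It was not called without NTB replicate 1, NTB replicate 2, NTB replicate 4, IgG1 replicate 2, IgG1 replicate 3, IgG1 replicate 4 or IgG1 replicate 5, with adjusted p up to 0.0677. Dio2, the deiodinase that activates thyroid hormone, fell from 4.06 to 5.87 to 0.797 to 2.76 CPM (log2 fold change -1.89 ± 0.30 SE, adjusted p = 0.00294). Ret, the kinase that GFRAL signals with, had 7.04, 9.497, 5.06, 12.2 and 6.07 CPM in NTB, 3.41, 0.863, 2.31, 0.889 and 2.47 CPM in IgG1 and 3.87, 3.53, 5.61, 3.01 and 3.88 CPM in 3P10. All IgG1 values were below all NTB values (log2 fold change -2.001 ± 0.35 SE, adjusted p = 0.00451), in tissue with 0 reads of Gfral.

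Other genes with large changes had few reads in this tissue. Rsph1, a radial spoke protein of motile cilia, had 2.39, 2.65, 5.30, 1.82 and 2.36 CPM in NTB and 0.613, 0.388, 0.210, 0.276 and 0.306 CPM in IgG1 (log2 fold change -3.01 ± 0.36 SE, adjusted p = 0.000458). Scg3, a secretory granule protein, had 2.23, 2.35, 2.96, 2.45 and 2.01 CPM in NTB and 0.498, 0.431, 0.455, 0.276 and 0.275 CPM in IgG1, and every NTB value was more than 4 times the group mean of IgG1 (log2 fold change -2.63 ± 0.26 SE, adjusted p = 0.000186). Doc2b, a calcium sensor of vesicle fusion that takes part in insulin-stimulated glucose uptake, had 0.420, 0.571, 0.239, 0.280 and 0.541 CPM in NTB and 1.42, 2.98, 2.38, 3.19 and 1.99 CPM in IgG1 (log2 fold change 2.52 ± 0.30 SE, adjusted p = 0.000458). Among energy genes at higher levels, Plin4, a lipid droplet protein, rose from 179.7 to 327 to 423 to 551 CPM (log2 fold change 1.04 ± 0.16 SE, adjusted p = 0.00218), and Gyg, glycogenin, from 304 to 379 to 481 to 819 CPM (log2 fold change 0.84 ± 0.16 SE, adjusted p = 0.0074). Pdk4, the fasting-induced inhibitor of pyruvate use, differed by 0.69 ± 0.30 SE (adjusted p = 0.21) and was not called.

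**Figure D5:**
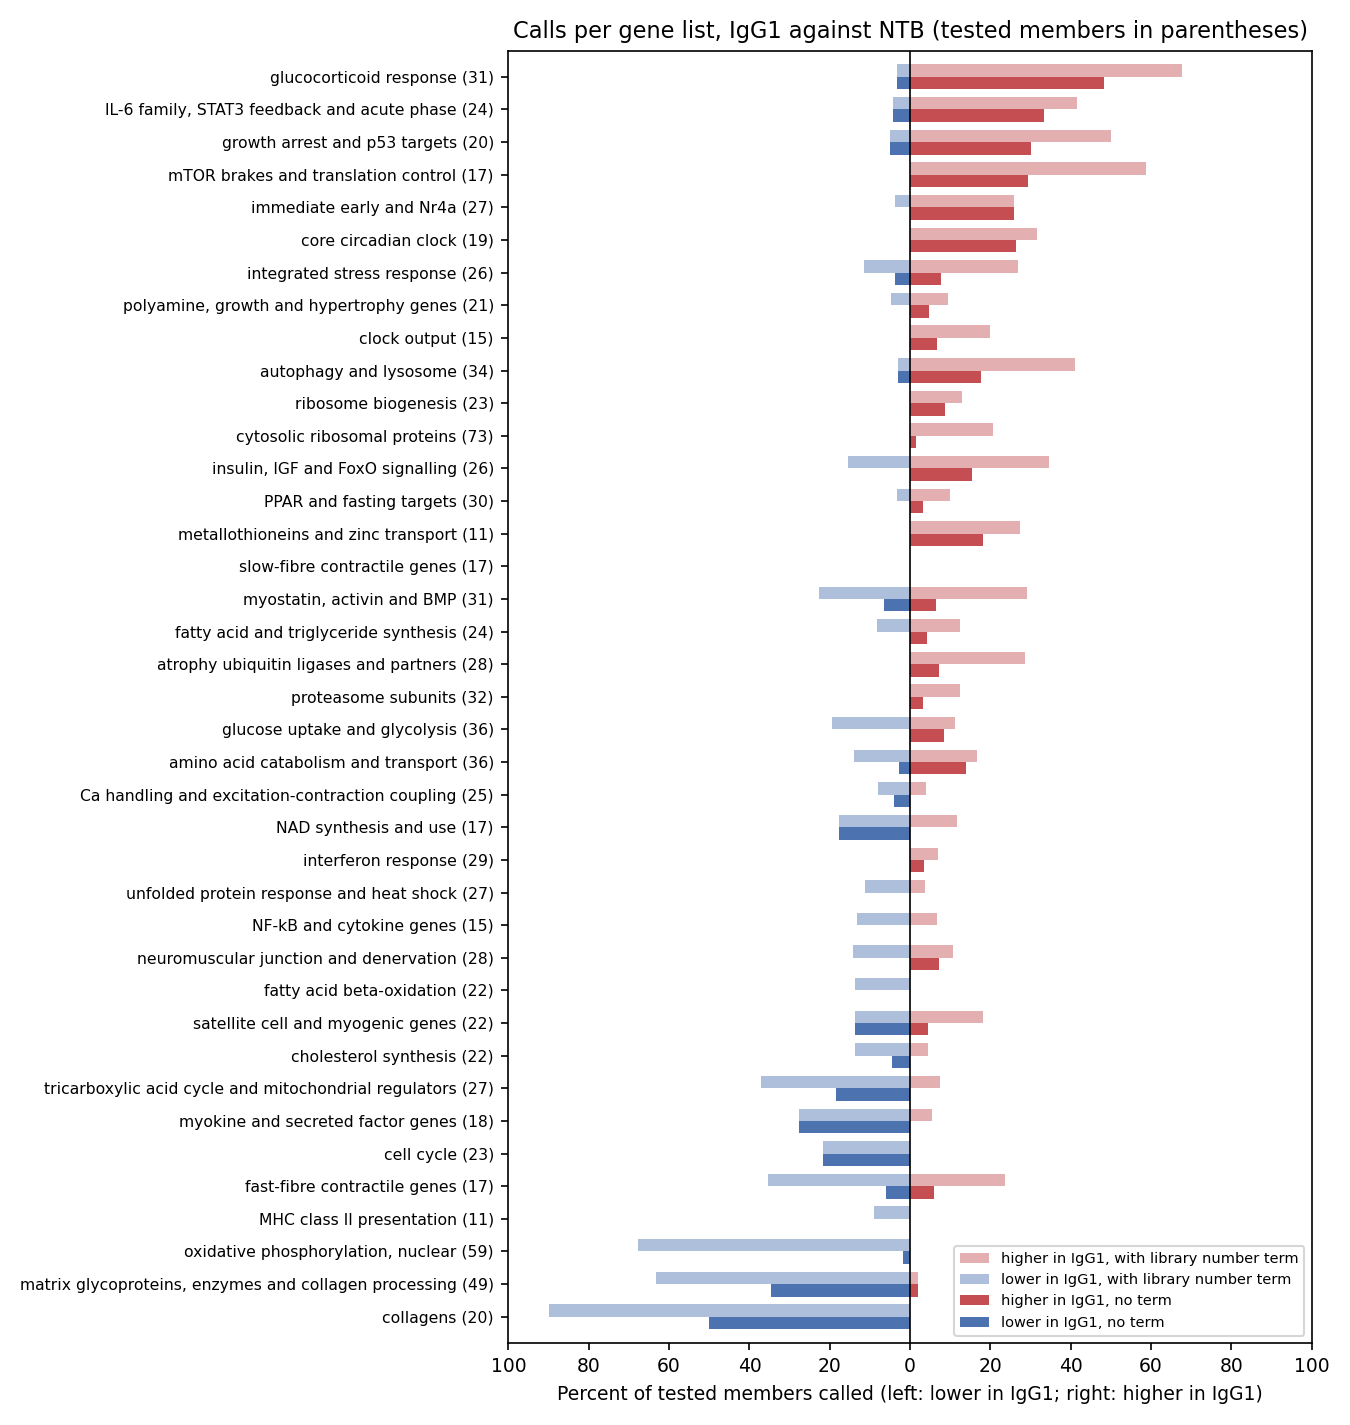
Percent of tested members called (horizontal; right of 0 higher in IgG1, left of 0 lower) for 39 gene lists (vertical, tested members in parentheses), dark bars without and pale bars with the library number term. Glucocorticoid genes lead on the right and collagens on the left; over all tested genes the shares were 2.68% higher and 2.92% lower without the term and 9.16% and 9.32% with it.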

How the data were processed

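The authors deposited counts: each value is a whole number of reads for 1 of 24391 gene symbols in 1 library, per the labels. Muscle RNA came from flash-frozen tissue and went through a directional library kit, per the labels' protocols. The submitters' processing notes name Trim Galore, STAR 2.6.0a, featureCounts 1.6.2, edgeR 3.22.3 and the mm9 build. The strand setting and annotation of the counting are not given in the sources used here, so overlapping and antisense genes cannot be told apart.

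Groups followed the sample titles. The 15 muscle libraries, 24.8 to 33.5 M counts deep, were fitted with edgeR 4.0.16 in R 4.3.3: quasi-likelihood test, TMM factors, filterByExpr (minimum count 10, minimum total 15), 2-sided, 12 residual degrees of freedom, or 11 with a term for libraries numbered 14 or higher. CPM is the count per M of TMM-scaled library total. Fold changes are IgG1 against NTB, and the script was tested on simulated data. The members and lists, the library number term included, were chosen with earlier results of these data known. Named genes were drawn from a panel, the 12 largest rises and 12 largest falls among called genes without overlap and with a mean of at least 1 CPM, the 6 largest of each direction called with the term only, and up to 4 called members of each list, and the text gives a part of them. Deviations from group means of NTB and IgG1 samples with the same replicate number had correlations of 0.13, -0.41, -0.60, -0.32 and 0.40. For replicates 2, 3 and 4 only 1 of the 2 libraries was numbered 14 or higher, and the split was not removed first. These values therefore cannot show whether samples were paired. The labels name no pairs, and the numbers were not taken as such. Pairs of libraries within a group differed beyond counting noise, at 17.6 or more chi-square units per degree of freedom. Transcript lengths came from GENCODE for 96.6% of tested genes, and promoter windows from RefSeq. Alternatives were DESeq2 1.42.0, RLE factors, other low-count filters, IgG1 and NTB libraries alone, libraries numbered below 14 alone, fits with the replicate number as a block, and fits that left out 1 library each.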

Additional observations from a re-analysis of the deposited data

Results flagged for a closer look

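In 32 of 308 sets of 5 libraries (154 named genes, NTB and IgG1 each), 1 library lay far from the other 4, by a gap above 0.71 of the range. That limit gives about 1 in 20 for independent normal values. The CPM values were not transformed, and the genes were selected and not independent, so this rate need not hold here. NTB replicate 3, a library numbered above 14, was that library 17 times. It was the highest of its group for Cebpd (31.04 CPM, others at most 9.87), Arrdc3 (56.7 CPM), Rsph1 (5.30 CPM), Gdpd3 (7.59 CPM), Gadd45g (68.2 CPM), Mt2 (15.9 CPM), Map1lc3b (187 CPM) and Cirbp (87.8 CPM). The same held for Stac3 (499 CPM), Jun (191 CPM), Timp1 (3.15 CPM), Bnip3l (71.4 CPM), Ctsl (199 CPM), Cox7a1 (359.8 CPM, others at most 99.7) and Pgam2 (4506 CPM, others at most 1871), and it was the lowest for Akt1 (32.9 CPM) and Stat3 (40.5 CPM). IgG1 replicate 1 was the highest of its group for Mfap4 (3.56 CPM), Mstn (77.3 CPM), Col3a1 (164 CPM, others at most 44.5), Col1a2 (145 CPM, others at most 54.9) and Aldh4a1 (68.2 CPM). NTB replicate 4 stood above the rest for Kera (5.56 CPM), Spon2 (4.51 CPM) and Serpinh1 (53.1 CPM), NTB replicate 1 for Dnm1l (77.8 CPM) and NTB replicate 5 for Slc2a3 (18.9 CPM). Within IgG1, replicate 2 was highest for Gadd45a (77.7 CPM) and Stac3 (289 CPM), replicate 4 for Pik3r1 (135 CPM) and Gpt2 (414 CPM), and replicate 5 for Il6ra (17.6 CPM).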

How the results depend on the processing

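The number of called genes moved with the processing. DESeq2 called all 744 genes among 1326 (640 higher, 686 lower). Signs of all 744 were compared only with the fit with the library number term, where all kept their sign. Of the genes called with the term, 1 had the other sign without it. In the other fits signs were compared for the named genes. RLE factors gave 738, 561 came without the low-count filter, 715 when genes needed 1 CPM in 5 libraries, and 876 with libraries numbered below 14 alone. IgG1 and NTB libraries alone gave 347 (161 higher, 186 lower, 167 at least 2-fold). The library number term gave 2455 (1217 higher, 1238 lower), and with IgG1 and NTB libraries alone 1788 (860 higher, 928 lower). The replicate block gave 418 (178 higher, 240 lower), and 399 of them were among the 744. The replicate block with the library number term gave 1977 (949 higher, 1028 lower). The numbers share nothing the labels name, and 1 of 5 NTB libraries matched its own number best. The library split enters that match too, so it cannot show whether samples were paired. With 1 library left out the count ran from 327 to 1307, with 142 to 625 higher, 175 to 682 lower and 139 to 444 at least 2-fold. With the term it ran from 1366 (without NTB replicate 3) to 3533 (without IgG1 replicate 1), with 636 to 1765 higher and 730 to 1768 lower. The cause was not tested. Of 132 named called genes, 71 kept their call in all 15 such fits, and 129 did with the term. Among the named genes signs turned for uncalled ones only: the range was -0.124 to 0.044 for Igf1 and -0.017 to 0.200 for Myh4, and with the term -0.273 to 0.068 for Myh1 and -0.064 to 0.080 for Myh4. Depth limits genes near 0.1 CPM, where 1 read moves the value.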

Other observations

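Some genes missed the threshold in edgeR without the library number term and were called with it. DESeq2 without the term also called Gdpd3, Slc25a25, Kdr, Fmod and Comp, and edgeR on the libraries numbered below 14 alone called Gdpd3, Pgam2, Kdr, Fmod and Comp. Gdpd3, a lysophospholipase D gene, varied most within groups: it had 0.968, 1.01, 7.59, 0.978 and 1.08 CPM in NTB, 17.95, 73.1, 43.3, 0.919 and 2.05 CPM in IgG1 and 30.7, 7.34, 33.8, 33.6 and 0.950 CPM in 3P10, so all 3 groups held libraries near 1 CPM (log2 fold change 3.60 ± 1.05 SE with the term, adjusted p = 0.0259, not called in 6 of 15 fits that left out a library). Slc25a25, a mitochondrial ATP-magnesium carrier, had 37.4, 28.9, 31.5, 36.0 and 41.1 CPM in NTB and 49.2, 51.7, 322, 150.2 and 70.5 CPM in IgG1, with no overlap and replicate 3 highest (log2 fold change 1.996 ± 0.52 SE with the term, adjusted p = 0.0137). Pgam2, the muscle phosphoglycerate mutase of glycolysis, had 1709.5, 1862, 4506, 1871 and 1738 CPM in NTB and 911, 1834, 1023, 1403 and 967 CPM in IgG1. Its log2 fold change was -1.07 ± 0.12 SE with the term (adjusted p = 9.09e-05), and without the term its adjusted p was 0.121. Kdr, the endothelial receptor for vascular endothelial growth factor, had 65.3, 40.4, 12.8, 44.0 and 41.4 CPM in NTB and 12.5, 9.92, 23.9, 6.19 and 23.04 CPM in IgG1, where NTB replicate 3 lay within the IgG1 range (log2 fold change -1.14 ± 0.21 SE with the term, adjusted p = 0.00161). The tendon proteoglycan Fmod changed by -1.28 ± 0.25 SE with the term (adjusted p = 0.00229) and Comp, a cartilage and tendon matrix protein, by -1.41 ± 0.33 SE (adjusted p = 0.00761).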
